A study of Homo sapiens with 5 samples.

Results

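The genes described here encode mTORC1, the amino acid regulated growth kinase complex, and the complexes that control it on the lysosome. They are MTOR, RPTOR, RRAGA, RRAGC, LAMTOR1, FLCN, NPRL2, NPRL3, DEPDC5 and TSC2, chosen by name, 10 of the 26364 gene symbols in each count file. Their mRNA was counted in 5 sequencing libraries made from xenografts of HT-29, an established line of human colon cancer. Female NOD SCID mice, which lack T and B cells, received the cells subcutaneously in the back at 5 weeks of age and were then kept on their food for 2 weeks. All mice thus carried the same line in the same strain. The foods were methionine-free (2 libraries, called replicates 1 and 2), tryptophan/niacin-free (1 library), free of all of these nutrients (1 library, here named the combined omission) and normal (1 library). The labels do not say whether the methionine-free pair came from separate mice, so the p-values reflect no more than the spread of these samples, possibly a technical one.

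As background, mTORC1 drives protein synthesis and growth and holds autophagy down. When amino acids are plentiful, a pair of Rag GTPases, RagA or RagB with RagC or RagD, brings mTORC1 to the lysosomal surface, where the Ragulator complex anchors the Rags and the GTPase RHEB switches the kinase on. GATOR1 and the TSC complex turn these switches off, and sensors of leucine, arginine and S-adenosylmethionine act through GATOR1. Most of this control is exerted on protein activity and place, which mRNA counts do not measure.

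Library totals ran between 433930 counts (combined omission) and 1088084 counts (normal food), so that a single count was worth 0.919 to 2.31 CPM, the count scaled to library size. Levels below are CPM scaled by TMM, edgeR's correction for library composition. All 10 colon epithelial markers looked for were detected, summing to 12610 to 15810 CPM. Of the 6 leukocyte markers 3 were detected, at 34.0 to 62.7 CPM in sum, with PTPRC, CSF1R and CD163 at 0. Of the 7 fibroblast markers 2 were detected, at 15.4 to 17.9 CPM in sum. Skeletal muscle markers summed to 66.1 CPM in the tryptophan/niacin-free library and to 1.13 to 2.67 CPM elsewhere, with CKM at 0 in all 5. The titles of the libraries from normal food and from the combined omission are in another style than those of the other 3. Any difference in handling behind that cannot be told apart from diet in comparisons across the styles.

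When the libraries of a diet were compared as a group, none of the 10 genes passed the test or size rule used in any comparison between diets. In the methionine-free pair MTOR, FLCN and TSC2 lay below the other 3 libraries, as 16% of all genes tested did, and LAMTOR1 lay above them, as 16.9% did; for TSC2 this order was lost once a trend with transcript length was removed. Summed over the 10 genes the level was 504 CPM (95% exact Poisson interval 446 to 566) and 499 CPM (445 to 557) in methionine-free replicates 1 and 2. It was 569 CPM (512 to 631) in the tryptophan/niacin-free library and 589.8 CPM (520.3 to 666) in the combined omission, against 550.4 CPM (507.5 to 596) on normal food. These intervals overlap, and cover counting error only. In bulk tumours, fewer cells of a type and less RNA per cell cannot be told apart.

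**Figure D1:**
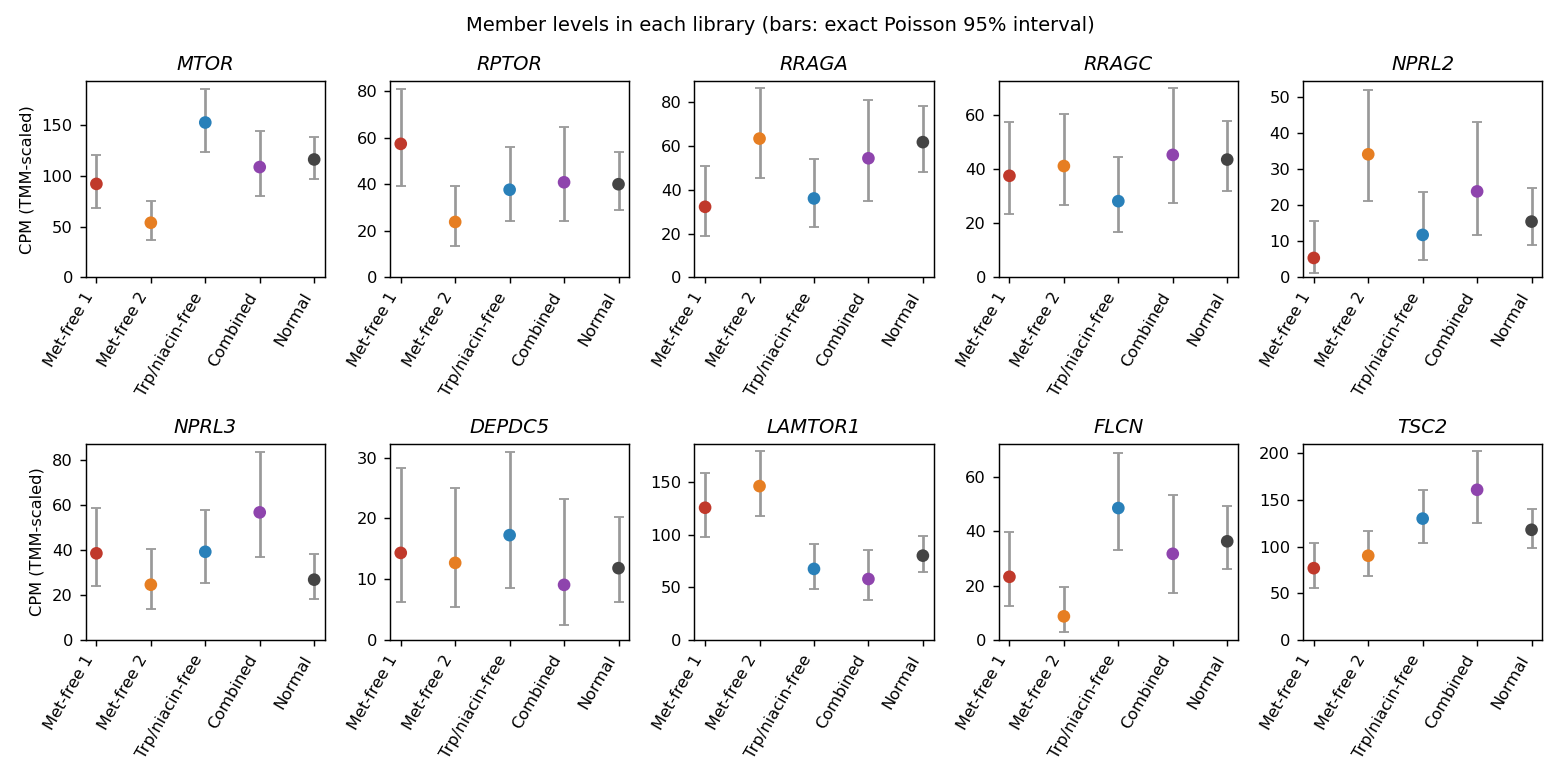
TMM-scaled CPM of each of the 10 genes (vertical axes from 0) in the 5 libraries (horizontal axes), with 95% exact Poisson intervals as bars. LAMTOR1 stands at 125 and 146 CPM in the methionine-free pair and at 57.8 to 80.0 CPM elsewhere, while MTOR, FLCN and TSC2 have their lowest values in that pair.

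Per kilobase of transcript, LAMTOR1 was the most abundant, with a mean of 80.8 CPM per kilobase over the 5 libraries and a range of 49.1 to 124. RRAGA followed at 31.2 (20.3 to 39.9), then TSC2 at 18.7 (12.5 to 26.1), RRAGC at 14.4 (10.3 to 16.6) and MTOR at 12.1 CPM per kilobase (6.21 to 17.6). The scaffold RPTOR, at 6.23 CPM per kilobase (3.71 to 8.95), was below its kinase. NPRL3, NPRL2 and FLCN had means of 11.6, 10.7 and 8.18 CPM per kilobase. DEPDC5 was lowest at 2.01 CPM per kilobase (1.40 to 2.66). LAMTOR1 and DEPDC5 did not overlap with their neighbour in this order, whereas every other neighbouring pair did. DEPDC5 did overlap with FLCN, whose range was 2.40 to 13.4 CPM per kilobase. Within the GATOR1 complex, DEPDC5 lay below NPRL2 and NPRL3 in each of the 5 libraries.

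**Figure D2:**
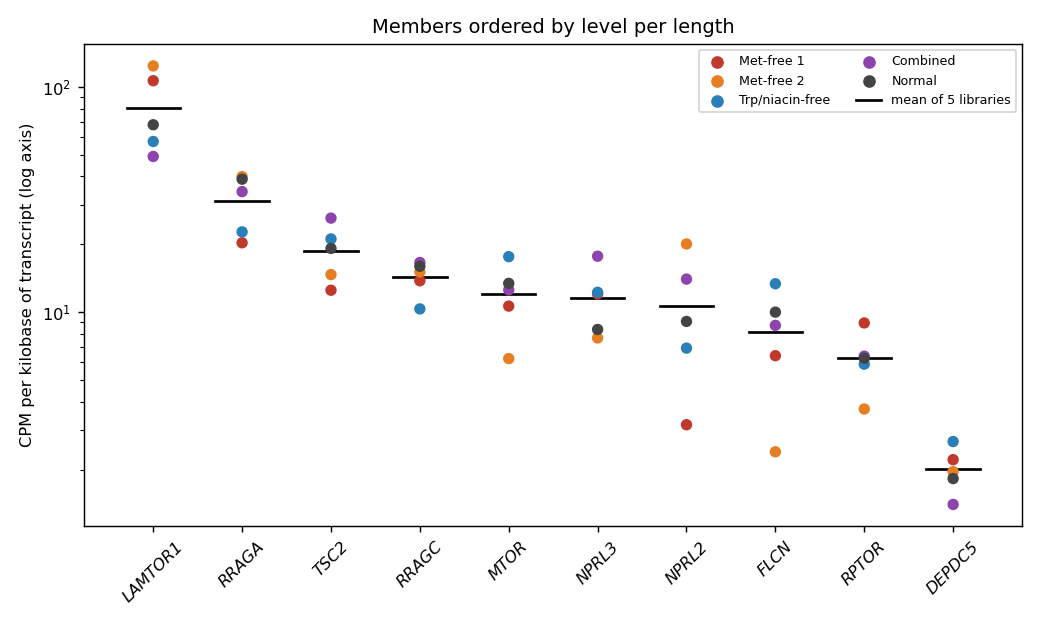
CPM per kilobase of transcript (log axis) for the 10 genes, ordered by their mean over the 5 libraries (black bars); points are libraries. LAMTOR1 (mean 80.8) and DEPDC5 (mean 2.01) stand clear of the genes next to them, and the other 8 form an overlapping series. The lowest point of FLCN (2.40) lies within the range of DEPDC5.

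A promoter element was looked up in the windows that RefSeq (GRCh38.p14) gives around the start of each gene, 250 bases before to 50 after. The element was CACGTG, the core of the sites bound by TFEB and TFE3, transcription factors that mTORC1 keeps out of the nucleus; it reads the same on both strands. It was present for 4 of the 9 genes with a window, which are all but RRAGA (LAMTOR1, RRAGC, TSC2 and NPRL3), against 13.3% of the 7709 tested genes with a window and 7.26% of all 35116 windows. A match is a description of letters and not a site of binding. None of the 3 genes with a match before the start passed a test or the size rule between diets, and a link of the element to diet was not tested. The 250 bases before the start are shown for these 3 genes. They are given 5′ to 3′ on the gene's strand, with CACGTG in capitals, for LAMTOR1 at chr11:72103298-72103547 (minus strand), RRAGC at chr1:38859773-38860022 (minus strand) and TSC2 at chr16:2047735-2047984 (plus strand, the first of its 2 windows).
LAMTOR1: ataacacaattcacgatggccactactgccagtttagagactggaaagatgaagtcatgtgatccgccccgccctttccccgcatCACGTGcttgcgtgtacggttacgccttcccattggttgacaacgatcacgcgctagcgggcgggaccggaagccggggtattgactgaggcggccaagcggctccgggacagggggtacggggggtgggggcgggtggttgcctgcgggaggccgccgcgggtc
RRAGC: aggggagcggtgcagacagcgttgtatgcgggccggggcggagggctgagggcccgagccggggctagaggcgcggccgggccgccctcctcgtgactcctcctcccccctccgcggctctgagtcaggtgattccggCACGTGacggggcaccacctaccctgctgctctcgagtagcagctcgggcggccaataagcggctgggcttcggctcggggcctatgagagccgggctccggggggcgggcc
TSC2: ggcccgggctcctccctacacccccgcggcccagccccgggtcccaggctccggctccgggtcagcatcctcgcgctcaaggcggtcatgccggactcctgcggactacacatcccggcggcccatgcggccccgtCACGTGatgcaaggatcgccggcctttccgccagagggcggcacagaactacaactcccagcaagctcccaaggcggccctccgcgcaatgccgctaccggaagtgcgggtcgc
The match began 165 bases before the start in LAMTOR1, 112 in RRAGC and 114 in TSC2. NPRL3 has its match 26 bases after the start.

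MTOR encodes the kinase itself. It had 51.5 and 34 counts (92.3 and 53.9 CPM) in methionine-free replicates 1 and 2, 97.5 counts (153 CPM) in the tryptophan/niacin-free library and 48 counts (109 CPM) in the combined omission, against 128 counts (116 CPM) on normal food. The methionine-free pair was lowest and the tryptophan/niacin-free library highest by CPM value. The Poisson interval of replicate 1 (68.8 to 121 CPM) overlapped those of the combined omission (80.3 to 144 CPM) and of normal food (97.1 to 138 CPM). RPTOR encodes Raptor, the scaffold that presents substrates to the kinase. It stood at 57.3 and 23.8 CPM in methionine-free replicates 1 and 2, 37.6 CPM in the tryptophan/niacin-free library and 40.8 CPM in the combined omission, against 40.0 CPM on normal food. Its highest and its lowest value were thus the methionine-free replicates, and the other 3 libraries lay between them. Counts of RPTOR were 32 and 15 in that pair.

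Of the Rag GTPases, RRAGA varied 1.97-fold over the libraries and RRAGC 1.61-fold. RRAGA encodes RagA, which binds Raptor when loaded with GTP, and stood at 32.2 and 63.4 CPM in methionine-free replicates 1 and 2. It was at 36.1 CPM in the tryptophan/niacin-free library and 54.4 CPM in the combined omission, against 61.8 CPM on normal food. Its 2 lowest values were methionine-free replicate 1 and the tryptophan/niacin-free library, and the interval of the count ratio to normal food excluded 1 for both (1.13-fold to 3.42-fold and 1.06-fold to 2.88-fold lower). RRAGC encodes RagC, the partner GTPase, and had 37.6 and 41.2 CPM in methionine-free replicates 1 and 2, 28.2 CPM in the tryptophan/niacin-free library and 45.4 CPM in the combined omission, against 43.6 CPM on normal food. It varied least of the 10 genes. The other Rag genes were scarce: RRAGB had 5 to 18 counts and RRAGD 0 in all 5 libraries, where the floor of 3 counts allows up to 2.76 to 6.91 CPM.

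LAMTOR1 encodes p18, the lipid-anchored Ragulator subunit that tethers the complex to the lysosome. It had 70 and 92 counts (125 and 146 CPM) in methionine-free replicates 1 and 2, 43 counts (67.4 CPM) in the tryptophan/niacin-free library and 25.5 counts (57.8 CPM) in the combined omission, against 88 counts (80.0 CPM) on normal food. The methionine-free pair lay above the other 3 libraries by CPM value. The Poisson intervals of replicate 1 (97.8 to 158.5 CPM) and of normal food (64.2 to 98.6 CPM) overlapped slightly. The other Ragulator subunits LAMTOR2 to LAMTOR5 had fitted log2 fold changes of 0.84, 0.81, 0.54 and 0.36 for methionine-free over normal food, with adjusted p (edgeR's quasi-likelihood test, Benjamini-Hochberg adjustment over all genes tested) between 0.717 and 0.9. These 4 genes were listed together after their values were seen. LAMTOR2 stood at 26.9 CPM in replicate 1 and 63.4 CPM in replicate 2, against 25.4 CPM on normal food, so that its fold change came from replicate 2. LAMTOR3 was at 46.6 and 68.2 CPM against 32.7 CPM, LAMTOR4 at 62.7 and 98.3 CPM against 55.4 CPM and LAMTOR5 at 53.8 and 74.5 CPM against 50 CPM, higher in replicate 2 in each case. LAMTOR2, LAMTOR4 and LAMTOR5 have short transcripts (655, 605 and 868 bases), a property that moved with level in replicate 2 as given below for all genes.

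FLCN encodes folliculin, which with FNIP1 or FNIP2 acts on RagC and RagD and is needed for mTORC1 to hold TFEB and TFE3 back. It had 13 and 5.5 counts (23.3 and 8.72 CPM) in methionine-free replicates 1 and 2, 31 counts (48.6 CPM) in the tryptophan/niacin-free library and 14 counts (31.8 CPM) in the combined omission, against 40 counts (36.4 CPM) on normal food. Both methionine-free libraries were below the other 3. Its partners FNIP1 and FNIP2, picked out after their values were seen, had log2 fold changes of −0.60 (SE 0.446) and −0.43 (SE 0.447) for methionine-free over normal food, with edgeR adjusted p of 0.816 and 0.885.

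GATOR1, the complex of NPRL2, NPRL3 and DEPDC5 that stops RagA and RagB, had fitted log2 fold changes of 0.42, 0.24 and 0.19 for methionine-free over normal food, none past the test. NPRL2 had 3 and 21.5 counts (5.38 and 34.1 CPM) in methionine-free replicates 1 and 2, 7.5 counts (11.8 CPM) in the tryptophan/niacin-free library and 10.5 counts (23.8 CPM) in the combined omission, against 17 counts (15.4 CPM) on normal food. Like RPTOR it had both its extremes within the methionine-free pair. NPRL3 had 38.5 and 24.6 CPM in methionine-free replicates 1 and 2, 39.2 CPM in the tryptophan/niacin-free library and 56.7 CPM in the combined omission, against 26.8 CPM on normal food. Its highest value was the combined omission. DEPDC5, the GTPase-activating subunit, had 8 and 8 counts in the methionine-free pair, 11 in the tryptophan/niacin-free library and 4 in the combined omission, against 13 on normal food. Those counts are 14.3, 12.7, 17.2, 9.07 and 11.8 CPM in the same order, and the Poisson intervals of all 5 overlap.

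TSC2 encodes tuberin, the subunit of the TSC complex that turns RHEB off. It had 43 and 57 counts (77.0 and 90.4 CPM) in methionine-free replicates 1 and 2, 83 counts (130.2 CPM) in the tryptophan/niacin-free library and 71 counts (161 CPM) in the combined omission, against 130 counts (118 CPM) on normal food. The methionine-free pair was lowest and the combined omission highest. TSC1, its partner, named after its values were seen, had 30 and 16 counts (53.8 and 25.4 CPM) in methionine-free replicates 1 and 2. It had 42 counts (65.9 CPM) in the tryptophan/niacin-free library and 24 counts (54.4 CPM) in the combined omission, against 89 counts (80.9 CPM) on normal food. Between the methionine-free replicates TSC1 lay beyond the size rule given below, 1.12-fold to 4.16-fold lower in replicate 2. The TSC1 transcript is long (8616 bases), a property that moved with level in replicate 2 as given below for all genes. The part of length in the fold change of TSC1 was not tested. The log2 fold change of TSC1 for methionine-free over normal food was −1.05 (SE 0.424, edgeR adjusted p = 0.531).

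The comparison of methionine-free with normal food asks how the tumours differed when methionine alone was left out. The fit used edgeR's quasi-likelihood test on all 10005 genes that passed the filter on low counts, all 10 genes here among them, with Benjamini-Hochberg adjustment over all 10005 and a threshold of 0.05. Of the 10 genes 0 passed, where 0.23% of all genes did (23 lower, 0 higher). By limma-voom and by DESeq2 0 of the 10 passed as well. At an unadjusted p below the threshold 1 of 10 passed, FLCN, against 7.68% of all genes. FLCN had a log2 fold change of −1.17 (SE 0.533, 95% interval −2.21 to −0.12, edgeR adjusted p = 0.597). LAMTOR1 had 0.76 (SE 0.413, −0.05 to 1.57, adjusted p = 0.705), from a mean of 136 ± 14.5 CPM (SD, n = 2) in the methionine-free pair against 80.0 CPM on normal food. For MTOR it was −0.67 (SE 0.410, −1.47 to 0.14, adjusted p = 0.762), from 73.1 ± 27.1 CPM (SD, n = 2) against 116 CPM, and for TSC2 −0.49 (SE 0.413, −1.30 to 0.32, adjusted p = 0.844), from 83.7 ± 9.45 CPM (SD, n = 2) against 118 CPM. The other 6 lay between −0.35 (RRAGA) and 0.42 (NPRL2), with adjusted p of 0.903 or more. These intervals are wide: for RPTOR, at 0.00, a range of −0.95 to 0.95 was allowed. In this fit the variance came from a trend over all genes, so a gene's own SD in the pair does not enter its SE, interval or p.

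The order of the libraries was counted as a description. Both methionine-free libraries lay below the other 3 for 3 of the 10 genes (MTOR, FLCN and TSC2), against 16% of all genes tested, and above the other 3 for 1 (LAMTOR1), against 16.9%. Both were below normal food for 4 genes (MTOR, RRAGC, FLCN and TSC2), against 35.5%, and above it for 2 (LAMTOR1 and DEPDC5), against 34.8%. With 10 genes these counts are near their backgrounds.

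**Figure D3:**
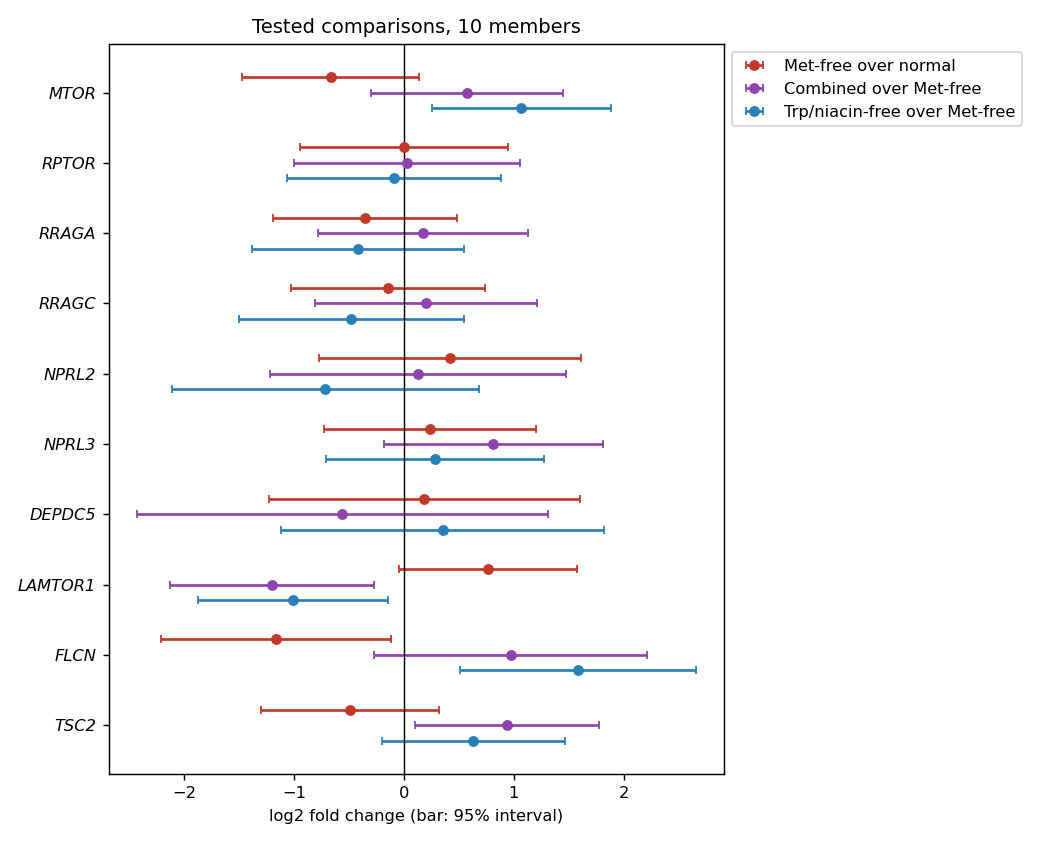
Fitted log2 fold changes (horizontal axis) of the 10 genes in the 3 comparisons that involve the methionine-free pair, with 95% intervals as bars. Most intervals include 0; those of FLCN, LAMTOR1, MTOR and TSC2 exclude it in some comparisons, but none passed after adjustment over all genes.

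By the size rule used for pairs of single libraries, for which no test was made (at least 2-fold in TMM-scaled CPM, prior count 2, with a 95% exact interval of the count ratio that excludes 1), 2 of the 10 genes lay beyond it between methionine-free replicates 2 and 1, against 6.6% of all genes (2.43% higher and 4.17% lower in replicate 2). RPTOR was lower in replicate 2 than in replicate 1 (log2 difference −1.17, 15 against 32 counts, 1.27-fold to 4.79-fold lower). NPRL2 was higher (2.18, 21.5 against 3 counts, count ratio 6.49 with an interval of 1.95 to 33.9), but it is among the genes tested because of its level in replicate 2 and the combined omission, so its count here supports nothing. Each replicate was also set alone against normal food, a comparison added after the data were seen. Replicate 2 had MTOR (−1.07, 1.47-fold to 3.25-fold lower), FLCN (−1.66, 1.61-fold to 11-fold lower) and NPRL2 (1.04, ratio interval 1.15 to 4.53) beyond the rule. Of all 10005 genes tested, 489 lay beyond it higher and 879 lower in replicate 2. NPRL2 supports nothing here either, for the same reason. Replicate 1 had 0 of the 10, where 94 of all genes tested were higher and 205 lower. LAMTOR1 had a ratio interval above 1 in each, at 1.13 to 2.17 in replicate 1 and 1.35 to 2.47 in replicate 2, both short of 2-fold by their log2 differences of 0.63 and 0.84.

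Transcript length moved with these differences. When the 9583 tested genes with a known transcript length were put into 4 groups by it, the median log2 difference from normal food in methionine-free replicate 2 was 0.48 in the shortest group, whose median length was 1502 bases, and −0.44 in the longest, whose median length was 6716 bases. In replicate 1 these medians were 0.13 and −0.10, and in the other 2 libraries they stayed between −0.02 and 0.01. LAMTOR1 (1179 bases), RRAGA and NPRL2 belong to the shortest group, and MTOR (8677 bases), RPTOR, DEPDC5 and TSC2 to the longest. With a smooth trend against length removed, MTOR was at 90.3 and 73.0 CPM in the methionine-free pair, against 105 CPM on normal food, and its log2 fold change was −0.35 in place of −0.67. LAMTOR1 was then at 122 and 107 CPM, against 88.1 CPM, and its log2 fold change was 0.37 in place of 0.76. TSC2 was at 75.8 CPM in replicate 1 and 110.5 CPM in replicate 2, against 110.3 CPM, so that replicate 2 no longer lay below normal food. RRAGA was then at 31.7 and 50.55 CPM, against 65.9 CPM, and its log2 fold change was −0.65 in place of −0.35. Both methionine-free libraries were then below the other 3 for 2 of the 10 genes (MTOR and FLCN), against 14.4% of all genes, and above them for 1 (LAMTOR1), against 14.5%. They were below normal food for 4 (MTOR, RRAGA, RRAGC and FLCN), against 34.9%, with RRAGA in place of TSC2. They were above it for 2 (DEPDC5 and LAMTOR1), against 34.3%. FLCN changed little, at 23.0 and 9.11 CPM against 35.8 CPM (−1.12, SE 0.491, adjusted p = 0.524 by edgeR).

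**Figure D4:**
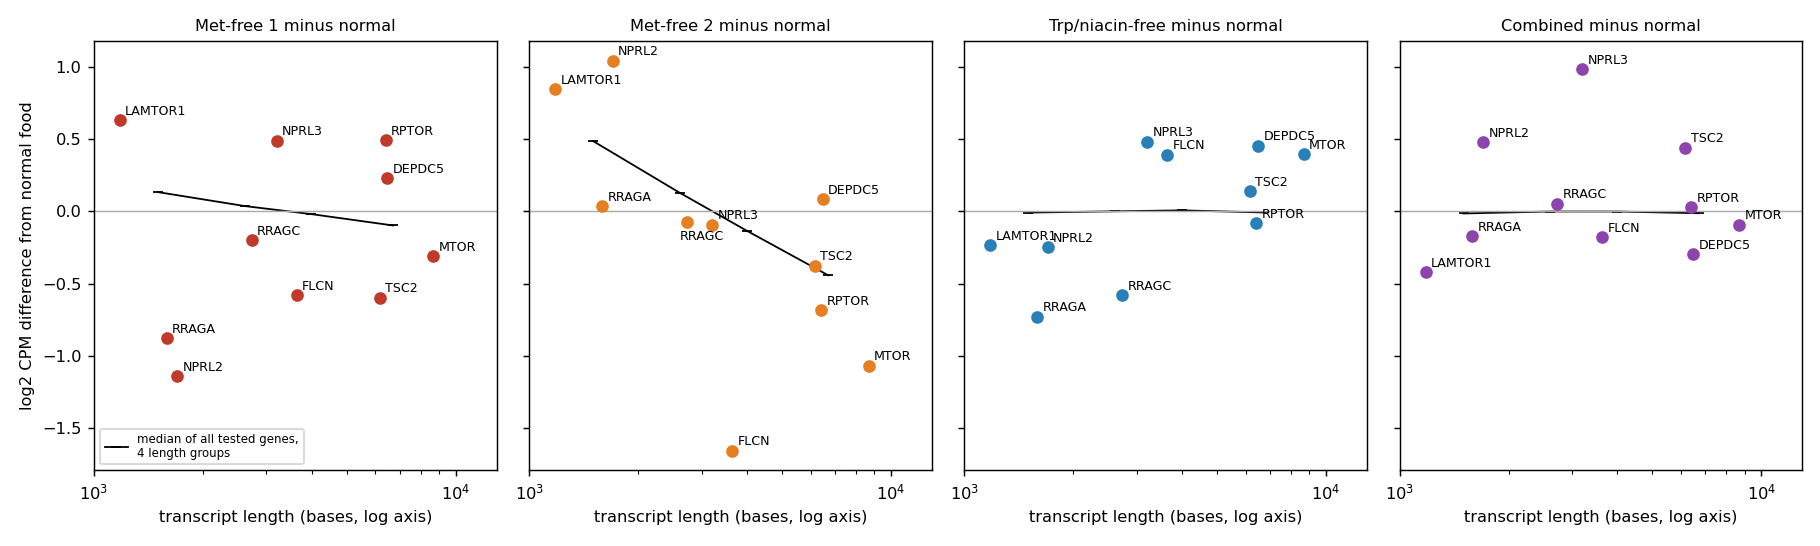
log2 CPM difference from normal food (vertical axis) of the 10 genes against transcript length (log axis) in each of the other 4 libraries; the black line joins the medians of all tested genes in 4 length groups. The line runs between 0.48 and −0.44 in methionine-free replicate 2 and stays near 0 in the panels of the combined omission and of tryptophan/niacin-free food.

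Setting the combined omission against methionine-free food asks what leaving out tryptophan and niacin did once methionine was absent. It shares the methionine-free libraries with the previous comparison, so an extreme value in them enters both with opposite signs. Of the 10 genes 0 passed edgeR's test, against 0.03% of all genes (3 higher), and 0 passed by limma-voom or DESeq2. Unadjusted, 2 passed against 7.59% of all genes. LAMTOR1 stood at 57.8 CPM in the combined omission, against 125 and 146 CPM in the methionine-free pair (log2 fold change −1.20, SE 0.473, 95% interval −2.13 to −0.27, edgeR adjusted p = 0.533). TSC2 stood at 161 CPM against 77.0 and 90.4 CPM (0.94, SE 0.428, 0.10 to 1.78, edgeR adjusted p = 0.616). With the length trend removed LAMTOR1 was at −0.82 and TSC2 at 0.69, and TSC2 no longer passed unadjusted (edgeR unadjusted p = 0.0501). FLCN was at 0.97, NPRL3 at 0.82 and MTOR at 0.57 on the log2 scale, with adjusted p between 0.741 and 0.795. With a methionine-free library left out these ranged over 0.41 to 1.49 (FLCN), 0.50 to 1.08 (NPRL3) and 0.22 to 0.98 (MTOR), and MTOR was at 0.24 with the length trend removed.

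Setting tryptophan/niacin-free against methionine-free food compares the single omissions, again with the same pair. Of the 10 genes 0 passed edgeR's test, and 0% of all genes did, by limma-voom and DESeq2 too. Unadjusted, 3 of the 10 passed in the edgeR fit, against 4.91% of all genes. FLCN stood at 48.6 CPM in the tryptophan/niacin-free library, against 23.3 and 8.72 CPM in the methionine-free pair (log2 fold change 1.58, SE 0.548, 95% interval 0.51 to 2.66, edgeR adjusted p = 0.812). MTOR stood at 153 CPM against 92.3 and 53.9 CPM (1.07, SE 0.415, 0.26 to 1.88, edgeR adjusted p = 0.992), and LAMTOR1 at 67.4 CPM against 125 and 146 CPM (−1.01, SE 0.442, −1.88 to −0.14, edgeR adjusted p = 0.992). With the length trend removed these became 1.53, 0.75 and −0.62, and LAMTOR1 no longer passed unadjusted (edgeR unadjusted p = 0.075). The skeletal muscle markers given above, at 66.1 CPM in this library, were high in it alone, and their part in these values was not tested.

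The additive fit averages the effect of each omission over the other. Of the 10 genes 0 passed for either omission with edgeR, limma-voom or DESeq2, where 0% of all genes did. Unadjusted in the edgeR fit, FLCN was the 1 of 10 for leaving out methionine (−0.93, SE 0.407, edgeR adjusted p = 1.00), against 1.72% of all genes. LAMTOR1 was the 1 of 10 for leaving out tryptophan and niacin (−0.75, SE 0.332, edgeR adjusted p = 1.00), against 1.64%. With the length trend removed FLCN was at −0.91 for methionine. LAMTOR1 was then at −0.55 for tryptophan and niacin and no longer passed unadjusted (edgeR unadjusted p = 0.0688). The interaction was added after the data were seen. It sets the effect of methionine omission on tryptophan/niacin-free food against the same effect on complete food. It passed for 0 of the 10 genes, with limma-voom and DESeq2 as well, and for 0.43% of all genes in the edgeR fit. Unadjusted it passed for 0 of the 10, against 6.45%. The fitted interactions of LAMTOR1 (−0.95) and RRAGA (0.95) had edgeR adjusted p of 0.904 and 0.921. They ranged over −1.03 to −0.81 and 0.52 to 1.44 with a methionine-free library left out, and were −0.57 and 1.23 with the length trend removed.

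The lone libraries were compared by the size rule, with no replicate check; no test was made between them. Between tryptophan/niacin-free and normal food 0 of the 10 genes lay beyond it, against 3.52% of all genes (1.01% higher, 2.51% lower). MTOR was 1.32 times as high (97.5 against 128 counts, interval 1.005 to 1.73) and RRAGA 1.06-fold to 2.88-fold lower (23 against 68 counts). Between the combined omission and normal food 0 lay beyond it, against 2.02% of all genes (0.95% higher, 1.07% lower). NPRL3 came nearest, at a log2 difference of 0.98 (25 against 29.5 counts, 56.7 against 26.8 CPM, ratio 2.08 with an interval of 1.17 to 3.66), and TSC2 was at 0.44 (ratio 1.36, 1.01 to 1.83). Between the combined omission and tryptophan/niacin-free food 0 lay beyond it, against 4.04% of all genes (2.3% higher, 1.74% lower), and the ratio interval of every one of the 10 genes included 1. The first 2 of these comparisons share the normal library with the methionine-free comparison.

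Around these 10 genes, 95 further genes of the pathway were listed in 9 groups, of which 87 could be tested. Comparing methionine-free with normal food, 1 of the 87 passed, beside 0.23% of all genes (23 lower, 0 higher). It was the autophagy kinase gene ULK1, whose protein mTORC1 holds inactive by phosphorylation. ULK1 had 33 and 22 counts (59.1 and 34.9 CPM) in methionine-free replicates 1 and 2, 44 counts (69.0 CPM) in the tryptophan/niacin-free library and 56 counts (127 CPM) in the combined omission, against 178 counts (162 CPM) on normal food. By CPM value all libraries on deficient food lay below the lone normal library. For the combined omission the interval of the count ratio to normal food included 1 (0.571 to 1.07). ULK1 fell in the methionine-free pair (log2 fold change −1.79, SE 0.406, edgeR adjusted p = 0.00951), and did so by limma-voom (adjusted p = 0.0218) but not by DESeq2 (−1.79, adjusted p = 1.00). With the length trend removed it was at −1.62 (SE 0.311, edgeR adjusted p = 0.0300). In the tryptophan/niacin-free library ULK1 was beyond the size rule, with a log2 difference from normal food of −1.20 (1.68-fold to 3.34-fold lower).

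The median log2 fold change of all genes tested was 0.00 for methionine-free over normal food. It was −0.07 for the 10 genes, 0.45 for Rag and Ragulator partners (5 of 8 above 0), 0.16 for GATOR2, the inhibitor of GATOR1 (3 of 5), 0.27 for KICSTOR, which anchors GATOR1 (2 of 3), and −0.09 for amino acid sensors (2 of 5). For the Rag and Ragulator partners the median difference from normal food was 0.13 in replicate 1 and 0.67 in replicate 2. No gene of these groups passed. ITFG2, a KICSTOR subunit, stood at 28.7 and 34.9 CPM in the methionine-free pair, against 26.4 CPM on normal food. LARS, the leucyl-tRNA synthetase that also acts as a leucine sensor, was level at 179 and 178 CPM in the pair, against 190.0 CPM, and SESN1, which encodes sestrin 1, was at 44.8 and 39.7 CPM against 50.9 CPM. C7orf60, an older symbol for SAMTOR, the S-adenosylmethionine sensor, was named after its values were seen. It had 8 and 17 counts in the methionine-free pair, 8 in the tryptophan/niacin-free library and 3 in the combined omission, against 17 on normal food, with a log2 fold change of 0.43 for methionine-free over normal food (SE 0.623, edgeR adjusted p = 0.925). In GATOR2, SEH1L was at 102 and 143 CPM in the pair against 92.7 CPM, and SEC13 at 80.6 and 132 CPM against 94.5 CPM.

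On the RHEB side the median of 10 genes was −0.12, with 3 above 0 and 0 past the test; the kinase genes AKT2 (228 and 194 CPM against 233 CPM) and PRKAA1 (185 and 222 CPM against 216 CPM) were the most abundant. The lysosomal proton pump, which takes part in amino acid sensing with Ragulator, had a median of 0.28 over 16 genes, 11 of them above 0 and 0 past the test. ATP6AP1 (195 and 168 CPM against 155 CPM) and ATP6V0C (139.8 and 159 CPM against 122 CPM) were its most abundant genes. In the combined omission over methionine-free food the pump had a median of −0.32, with 1 of 16 above 0 and 0 past the test, beside −0.02 for all genes, of which 4880 of 10005 were above 0. The pump's median difference from normal food was 0.15 in methionine-free replicate 1 and 0.40 in replicate 2, the library with the wider length trend. The mTOR complex partners had a median of 0.14 over 9 genes for methionine-free over normal food, with AKT1S1 at 124 and 127 CPM against 95.9 CPM and PRR5L at 91.4 and 98.3 CPM against 86.4 CPM. Substrates and effectors had a median of 0.09 over 16 genes, with EIF4B at 678 and 624 CPM against 652 CPM and LARP1 at 391 and 273 CPM against 416 CPM. Lysosomal targets of TFEB and TFE3 had one of 0.08 over 15, with PSAP at 611 and 715 CPM against 628 CPM and CTSD at 462 and 466 CPM against 585 CPM. These last 3 groups held 1 call, ULK1.

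**Figure D5:**
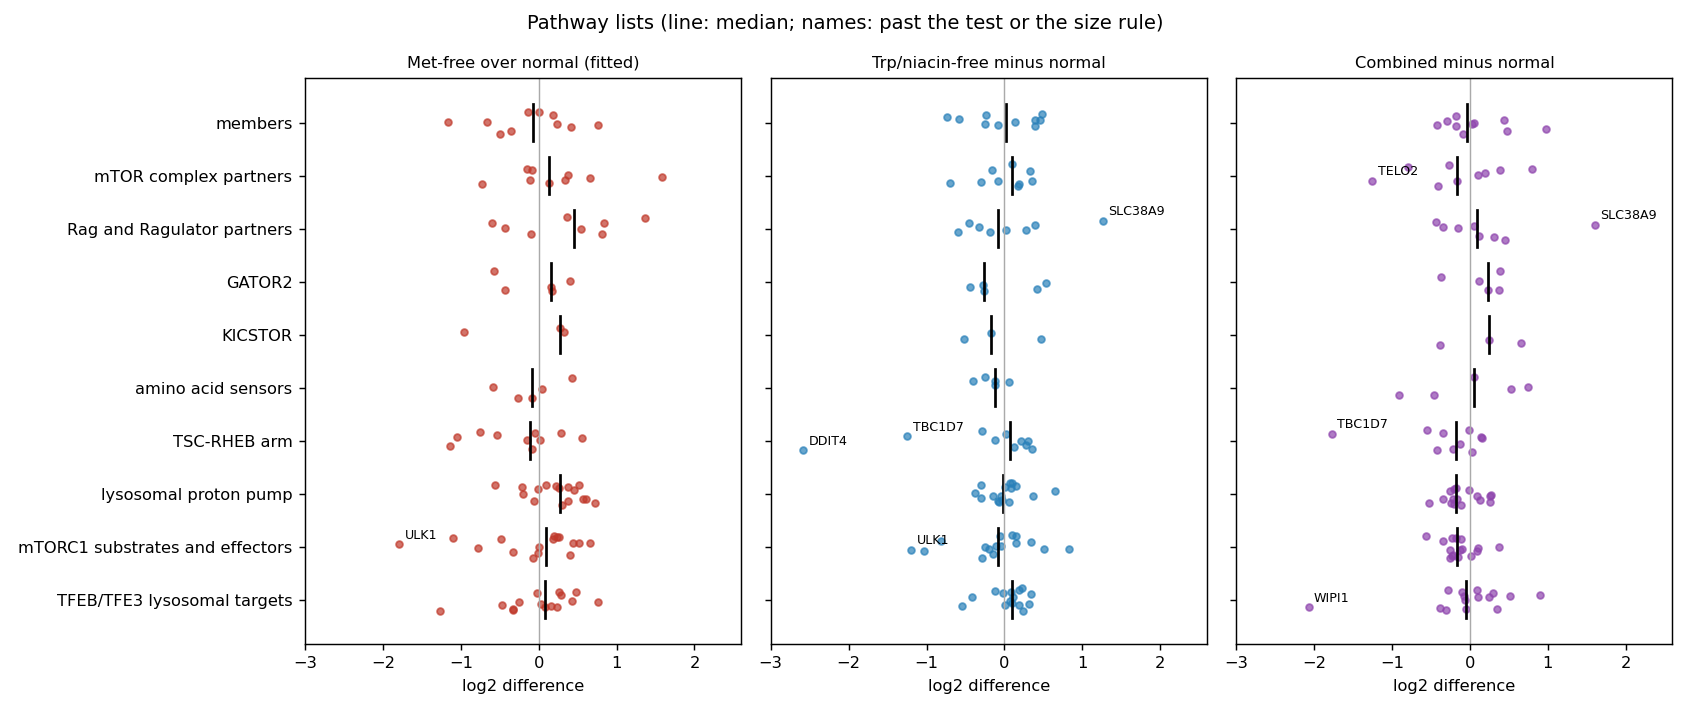
log2 differences (horizontal axis) of the 10 genes and of 9 groups of pathway genes from normal food, fitted for the methionine-free pair and observed for the lone libraries; vertical bars are medians and names mark genes past the test or the size rule. ULK1 is the gene past the test in the methionine-free panel, and no name stands in the row of the 10 genes (members).

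In the tryptophan/niacin-free library, 4 of the 87 pathway genes lay beyond the size rule against normal food, beside 3.52% of all genes, which is near that background: ULK1, DDIT4, TBC1D7 and SLC38A9. DDIT4 encodes REDD1, which inhibits mTORC1 through the TSC complex and is induced by low oxygen and by energy stress. It had 21 counts (32.9 CPM), against 233 counts (212 CPM) on normal food (log2 difference −2.58, 4.11-fold to 10.6-fold lower). TBC1D7, a subunit of the TSC complex, had 5 counts against 25 (−1.25, 1.09-fold to 9.70-fold lower). SLC38A9, the lysosomal arginine sensor that works with Ragulator, had 11 counts against 6 (1.26, ratio interval 1.07 to 10.4). In the combined omission 4 of the 87 lay beyond it, beside 2.02% of all genes. TBC1D7 (2 against 25 counts, −1.78, 1.25-fold to 43.6-fold lower) and SLC38A9 (10 against 6 counts, 1.61) were among them, against the same normal library. TELO2, a chaperone of newly made mTOR (13 against 82 counts, −1.26, 1.40-fold to 4.95-fold lower), and WIPI1, a protein of early autophagy (1 against 21 counts, −2.07, 1.35-fold to 348-fold lower), were the others. TBC1D7 is among the genes tested because of its level on normal food. SLC38A9 is among them because of its level in the tryptophan/niacin-free library and the combined omission. Their place beyond the rule thus supports nothing in either comparison.

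Which pathway genes ran most alike was measured by the root mean square difference of centred log2 CPM over the 5 libraries, among 96 candidates for each gene. With 5 libraries this is a description that shares depth and length effects. For MTOR the nearest were SGSH, a lysosomal sulfatase (0.19), and RICTOR, the mTORC2 scaffold (0.21). For FLCN they were SGSH (0.12) and MTOR (0.22), and for TSC2 the proton pump gene ATP6V0A1 (0.15) and SESN2 (0.19). LAMTOR1 was nearest to RPS6KB2, an S6 kinase (0.16), and ATP6V1H (0.21). RRAGC was nearest to CTSD (0.10) and DEPTOR (0.11), RRAGA to SQSTM1 (0.23) and ATP6V1G1 (0.26), and RPTOR to RRAGB (0.18) and FNIP1 (0.25). NPRL3 was nearest to TTI1 (0.19) and TPP1 (0.25), and DEPDC5 to TFE3 (0.06) and TFEB (0.13). NPRL2 had no close match, its nearest being GLA at 0.45 and RRAGA at 0.45.

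Some of the counts could hold reads of a neighbour, because the strand setting of the counting is not given in the sources used here. In the GENCODE annotation, 23.4% of the exon bases of NPRL2 overlap CYB561D2 on the opposite strand, and 11% of those of TSC2 overlap PKD1. CYB561D2 had 7.5 and 7.5 counts in the methionine-free pair, 10 in the tryptophan/niacin-free library and 12 in the combined omission, against 12 on normal food. PKD1 had 59 and 37.8 counts in the methionine-free pair, 86.2 in the tryptophan/niacin-free library and 72.6 in the combined omission, against 167 on normal food. These counts of both neighbours are not scaled to library size. The total was 433930 in the combined omission and 1088084 on normal food, so the counts do not order the libraries by level. Whether reads of PKD1 enter the values of TSC2 was not tested. MTOR shares 0.941% of its exon bases with an antisense gene, whereas RRAGA and LAMTOR1 share none. Part of the exons of RRAGC, FLCN and DEPDC5 (43.3%, 27.8% and 21.8%) is also annotated to same-strand genes that the files do not list.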

How the data were processed

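Each deposited file lists expected counts for 1 library by gene symbol (estimated, so not always whole: 15.2% to 17.6% of the values above 0 have decimals). Libraries were made with a TruSeq stranded mRNA kit from QIAzol extracts, per the labels' protocols. The tools named, per the submitters' processing notes, are featureCounts, Subread 2.0.0, SAMtools 0.1.18, Bowtie2 2.2.8 and TopHat2 2.1.1, and the build is hg19. Not given in the sources used here are the annotation, the strand setting, the handling of multiply mapped reads and any removal of mouse reads.

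Groups follow the treatment labels, and replicate numbers follow accession order. The genes and the lists of pathway and marker genes were chosen with earlier results of these data known. Expected counts were rounded to whole numbers and tested with edgeR 4.0.16 (R 4.3.3), using its quasi-likelihood test with TMM scaling (filterByExpr on diet, which kept 10005 of 26364 genes, Benjamini-Hochberg adjustment over all of them, threshold 0.05). The filter keeps a gene that is high enough in a single library. DEPDC5 passed through the tryptophan/niacin-free library alone, and NPRL2 through methionine-free replicate 2 and the combined omission. Among the pathway genes beyond the size rule, TBC1D7 passed through the normal library alone. SLC38A9 passed through the tryptophan/niacin-free library and the combined omission. With 1 mean per diet the methionine-free pair alone gives the spread (1 residual degree of freedom, biological coefficient of variation 0.207). The prior degrees of freedom of this fit were infinite. Each gene's variance was thus taken from a trend over all genes, and its own spread in the pair does not enter its SE or p. A lone library is taken to vary as the pair does. The additive model of both omissions has 2 residual degrees of freedom (0.227). SEs were derived from the fold change and its F statistic. Lone libraries were compared by the size rule only, on TMM-scaled CPM with a prior count of 2. Named pathway genes are those past the test or the size rule and otherwise the 2 most abundant of each list; 1 gene so chosen is not reported here.

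DESeq2 1.42.0, limma-voom (limma 3.58.1), median-of-ratios and total-count scaling, no filter, a prior count of 0.5, a length correction (lowess, span 0.3, GENCODE transcript lengths for 95.8% of tested genes) and leaving out each methionine-free library were the alternatives. The tests were checked on simulated counts. Library totals were 553502 and 678618 (methionine-free replicates 1 and 2), 613604 (tryptophan/niacin-free), 433930 (combined omission) and 1088084 (normal food). Intervals (95%, exact Poisson or exact conditional binomial) and floors (3 counts) cover counting error alone, as PCR copies are not told apart from molecules.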

Additional observations from a re-analysis of the deposited data

Results flagged for a closer look

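For 2 genes of the pathway, neither of them among the 10, the effect of leaving out methionine differed between food without and food with tryptophan and niacin, by the interaction term of the edgeR fit (Benjamini-Hochberg adjustment over all genes tested). These were 2 of the 87 further pathway genes tested, beside 0.43% of all genes tested. The term was added after the data were seen. DDIT4 had an interaction of 3.46 on the log2 scale (SE 0.688, edgeR adjusted p = 0.000395). It stood at 166 CPM in the combined omission, against 32.9 CPM in the tryptophan/niacin-free library, and at 96.8 and 95.2 CPM in the methionine-free pair, against 212 CPM on normal food. ULK1 had an interaction of 2.67 (SE 0.652, edgeR adjusted p = 0.0148). It stood at 127 CPM in the combined omission, against 69.0 CPM in the tryptophan/niacin-free library, and at 59.1 and 34.9 CPM in the methionine-free pair, against 162 CPM on normal food. Neither passed by DESeq2 (adjusted p of 0.726 and 1.00). Each term sets 3 lone libraries and the pair against each other, so that 1 library can decide it.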

How the results depend on the processing

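No gene of the 10 passed a test under any alternative run, and of the counts of calls and summed levels 119 values kept their size and 6 did not. For methionine-free against normal food, DESeq2 called 1 gene in place of 23. For the combined omission against methionine-free food, total-count scaling called 6, limma-voom 9 and DESeq2 0 in place of 3. For the interaction DESeq2 called 2 in place of 43. With a prior count of 0.5, 1 of the 10 genes, NPRL3 (1.04), lay beyond the size rule between the combined omission and normal food. ULK1 (methionine-free against normal food and interaction) and DDIT4 (interaction) did not pass by DESeq2. The cause was not tested.

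In fits with a test, log2 values changed sign in 24 cases, none of them past a test; the largest of the values so changed was NPRL2 in the additive fit of methionine (0.57). For methionine-free over normal food these were RPTOR (−0.0519 with total-count scaling, −0.0124 without the filter, −0.12 by limma-voom) and NPRL2 (−0.0120 by limma-voom). For the combined omission over methionine-free food this was RPTOR (−0.00103 without the filter, −0.20 length-corrected). For tryptophan/niacin-free over methionine-free food RPTOR was at 0.00417 with total-count scaling and 0.0446 by limma-voom. In the additive fit of methionine, RPTOR was at −0.0278 by limma-voom and RRAGA at 0.0138 by DESeq2. In that of tryptophan and niacin, RPTOR was at 0.0211 and NPRL2 at 0.0123 with total-count scaling, and at 0.0490 and 0.15 by limma-voom. NPRL2 was at 0.0933 and DEPDC5 at −0.0668 length-corrected, and DEPDC5 at −0.0148 by DESeq2. The length-corrected interactions of MTOR and RPTOR were −0.17 and −0.10.

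Leaving out a methionine-free library leaves the fit with 1 mean per diet without residual degrees of freedom, so that only log2 differences could be had there, with no count of calls. Without replicate 1 or 2, methionine-free over normal food stayed within −1.66 to −0.58 for FLCN, −1.07 to −0.31 for MTOR, 0.63 to 0.85 for LAMTOR1, −0.60 to −0.37 for TSC2 and −2.12 to −1.41 for ULK1, and spanned −1.15 to 1.05 for NPRL2, −0.68 to 0.49 for RPTOR and −0.88 to 0.04 for RRAGA. In the additive fit of methionine the range was −0.32 to 0.35 for RPTOR, −0.23 to 0.29 for RRAGA and −0.19 to 1.04 for NPRL2, and in that of tryptophan and niacin −0.27 to 0.29 for RPTOR and −0.47 to 0.58 for NPRL2, with 0 genes called throughout.

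No paired analysis was possible because the labels give no replicate numbers and only methionine-free food has more than 1 library. At these depths DEPDC5 and NPRL2 rest on 3 to 21.5 counts a library, and even a 3-fold fitted difference (FLCN, 1.58 on the log2 scale, tryptophan/niacin-free over methionine-free food) did not pass after adjustment over all genes.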
